A study of Canis lupus familiaris with 13 samples.

Results

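Transcript levels of 10 genes were followed in 13 biopsies of naturally occurring canine tumors treated by local injection of IMAX. The genes were the nucleic acid sensor ZBP1, its signaling partners RIPK1, RIPK3, and CASP8, the inflammasome genes NLRP3, PYCARD, CASP1, and IL18, and the pore-forming gasdermins GSDMD and GSDME. They were chosen by symbol, and with earlier values in view: ZBP1 was selected on its large early difference from the pretreatment biopsies in all 4 tumors. The early comparison of these genes is therefore given as a description, with no test. Of the 10 symbols, 9 were rows of the count table, which holds 43427 rows, and all 9 were among the 20118 genes expressed enough to be tested. CASP1 is not analysed here under its own symbol. RefSeq lists CASP1 as an older symbol of the dog gene CASP4 (gene 403724, chr5:27257464-27271644), and the CASP4 row is described beside the 9 genes under its own name.

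IMAX is a nanoparticle of a polyethyleneimine-lithocholic acid conjugate (2E′) that carries paclitaxel, a microtubule drug, and a cyclic dinucleotide, an agonist of the DNA-sensing adaptor STING. The 13 biopsies came from 3 adult female companion dogs. RV had a soft tissue sarcoma, CL had a cranial and a caudal mammary tumor, and BM had a left mammary tumor, and every tumor was biopsied before treatment. Early biopsies were taken at 2 days after the second dose in RV and at 1 week after the second dose in CL and BM. In the paper's histology of the RV biopsy at 2 days, the diagnosis was a granulomatous to pyogranulomatous dermatitis. Necrosis was extensive, and neoplastic cells were not definitively identified. Differences of the RV library at 2 days are therefore not known to lie within sarcoma tissue. Late biopsies were taken at 2 weeks after the third dose in RV, where an injection and an adjacent site were sampled, at 1 month after the second dose in CL, and at 3 weeks after the second dose in BM. Each tumor thus gave 1 library per time, apart from the 2 late RV sites, and no untreated tumor is among the libraries. The tumors of CL share a host, breeds and tumor types differ between dogs, and late tissue came from surgical removal of the tumor, so the late time and the mode of sampling cannot be told apart.

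ZBP1 is a cytosolic sensor of nucleic acids in the left-handed Z form, and its gene is induced by interferons. It binds the kinases RIPK3 and RIPK1 through a shared interaction motif, and it can lead to inflammatory signaling, to apoptosis through caspase-8, or to necroptosis, a lytic death that RIPK3 starts. Inflammasomes join a sensor such as NLRP3 to the adaptor ASC, the product of PYCARD, and to caspase-1. Caspase-1 matures interleukin-18 and cuts gasdermin D, whose freed part opens pores in the cell membrane. The 2E′ component of IMAX has been described as an inflammasome activator and the cyclic dinucleotide leads to interferon production, so the question here is how transcripts of these genes stood before and after treatment.

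Total counts ranged from 11622444 to 29931125 per library. Levels are given as CPM, counts scaled to library size after TMM normalization, and every value within a tumor rests on a single library with no replicate check. Marker genes of other cell types also differed between times. The summed level of 7 macrophage markers was 115 to 344 CPM in the libraries before treatment, 645 to 1187 CPM early, and 160 to 631 CPM late. The summed level of 6 neutrophil markers was 1137 CPM in RV at 2 days and 198 CPM in the cranial tumor of CL at 1 week, against 8.81 to 48.2 CPM in the other 11 libraries. Summed epidermis markers were 2952 CPM in RV at 2 days, against 72.1 CPM before treatment in the same mass, and its fibroblast markers were 1616 CPM against 18518 CPM. The highest summed epidermis level was 3539 CPM, in BM before treatment. The glandular epithelium markers, a check of the mammary label, were 25.5 to 107 CPM in the 4 RV libraries and 157 to 4614 CPM in the 9 mammary libraries. The value of 107 CPM was that of RV at 2 days, and the RV libraries before and late were at 25.5 to 27.7 CPM. T cell markers (13.04 to 31.7 CPM before and 27.7 to 187 CPM early) and endothelium markers (53.8 to 122 and 97.4 to 1369 CPM) were also higher early in all 4 tumors. In BM, fibroblast markers went from 818 CPM before to 18628 CPM early and 83378 CPM late, and the glandular markers from 3054 CPM before to 157 CPM late. The paper's histology of the late BM mass described carcinoma regions and a mineralized center with osteosarcoma features, read as carcinosarcoma. The part of these shifts in the results was not tested. In bulk tissue, more cells of a type and more RNA per cell cannot be told apart.

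**Figure D1:**
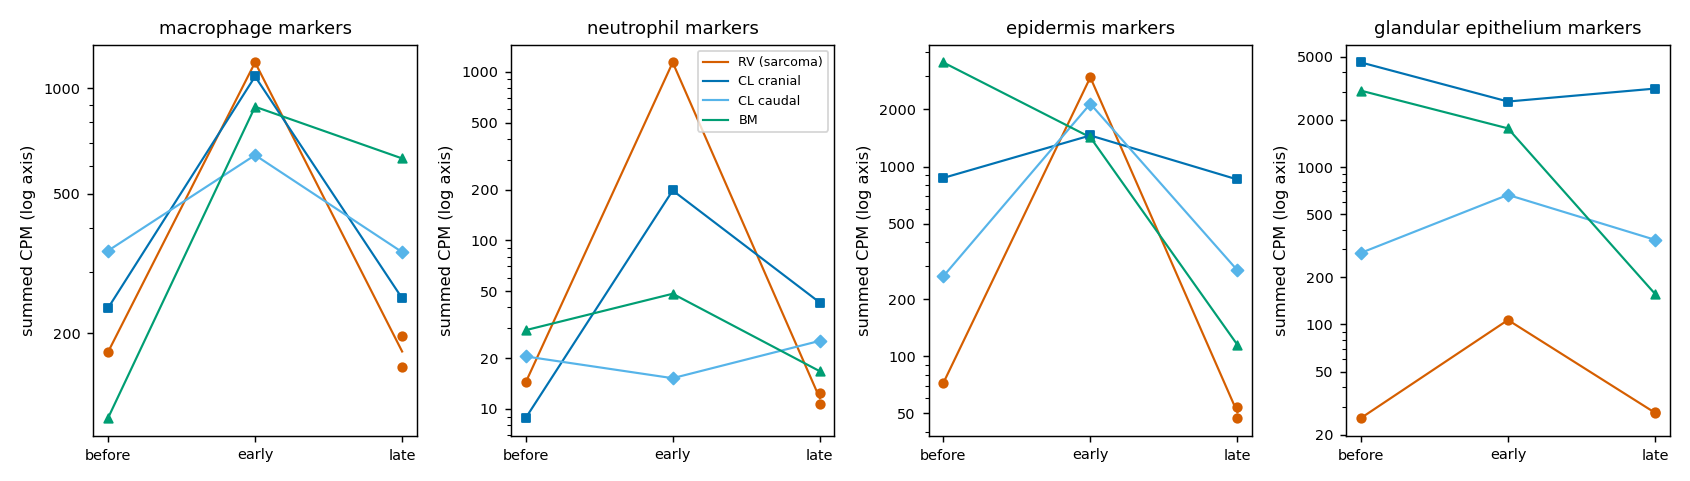
Summed CPM (log axis) of the macrophage, neutrophil, epidermis, and glandular epithelium marker genes in each library, before, early, and late. Points are libraries, colors are tumors, and lines join a tumor's libraries, through the geometric mean of the 2 late RV sites; the 4 early libraries have 645 to 1187 CPM of macrophage markers, above every library before treatment.

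ZBP1 (chr24:43325535-43337462 of UU_Cfam_GSD_1.0, the RefSeq name of the CanFam4 assembly; protein coding) had the largest early difference of the 9 genes. In RV it stood at 3.13 CPM before treatment (47 counts), 491 CPM at 2 days (8753 counts), and 3.59 and 3.69 CPM at the injection and adjacent sites at 2 weeks. In the cranial tumor of CL it was 13.4 CPM before, 143 CPM at 1 week, and 6.90 CPM at 1 month. In the caudal tumor it was 3.05 CPM before, 19.5 CPM at 1 week, and 0.409 CPM at 1 month, the last from 6 counts (exact Poisson 95% interval 0.150 to 0.891 CPM, counting error only). In BM it was 23.4 CPM before, 102 CPM at 1 week, and 18.7 CPM at 3 weeks. Every early library was thus higher than the library before treatment from the same tumor, from 4.34-fold in BM and 6.38-fold in CL caudal to 10.7-fold in CL cranial and 157-fold in RV. The early and before ranges nevertheless overlapped, since BM before treatment lay above CL caudal at 1 week.

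Across the libraries, ZBP1 averaged 10.7 ± 9.73 CPM before treatment (SD, n = 4) and 189 ± 208 CPM early (SD, n = 4). Late it averaged 6.67 ± 7.12 CPM (SD, n = 5 libraries, with both RV sites counted). With the tumor as a block, the early difference was 4.06 log2 with a standard error of 0.87, and it was 2.81 log2 without the RV libraries. The 4 early libraries, from 19.5 CPM, all lay above the 5 late libraries, which ended at 18.7 CPM. Such a separation of late below early was seen for 4.49% of all genes tested and for 1 of the 9 genes, ZBP1, and nothing is read from it, since ZBP1 was chosen on its early level. Macrophage markers were likewise higher early in every tumor, and their part in the ZBP1 difference was not tested. Per 100 CPM of macrophage markers, ZBP1 went from 1.77 CPM before to 41.4 CPM early in RV, from 5.68 to 13.2 in CL cranial, from 0.886 to 3.02 in CL caudal, and from 20.4 to 11.45 in BM. On this scale ZBP1 was higher early than before in 3 tumors and lower in BM.

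Late ZBP1 was lower than before treatment in the 3 mammary tumors, by 2.63 log2 at most, in CL caudal, and differed by 0.21 log2 in RV. Over the 4 tumors the late difference was -1.17 log2 (standard error 0.74, adjusted p = 0.973 by edgeR's quasi-likelihood test), which did not pass the threshold of 0.05.

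**Figure D2:**
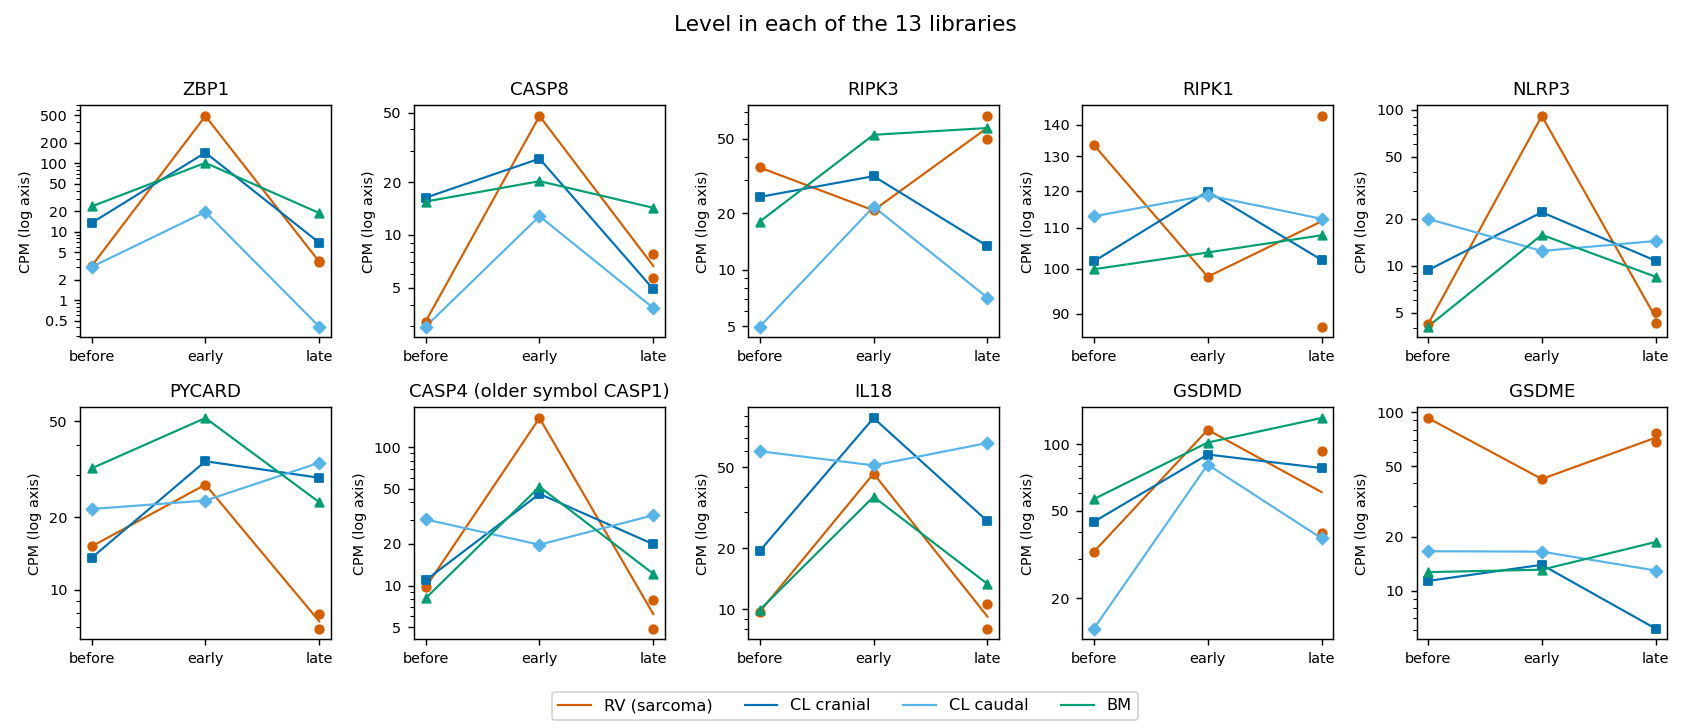
CPM (log axis, each panel on its own scale) of the 9 genes and of CASP4 in each of the 13 libraries, before treatment, early, and late. Points are libraries, colors and markers are tumors, and lines join a tumor's libraries, through the geometric mean of the 2 late RV sites; ZBP1 and CASP8 peak early in all 4 tumors, RIPK1 stays between 87.3 and 143 CPM, and GSDME is highest in the sarcoma.

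CASP8 (chr37:10248774-10259550), the initiator caspase that ZBP1 and death receptors recruit and that restrains RIPK3, followed ZBP1 most closely. It was 3.20 CPM before and 47.8 CPM at 2 days in RV, and 7.74 CPM at the adjacent and 5.70 CPM at the injection site late. In CL cranial it was 16.3 CPM before, 27.3 CPM at 1 week, and 4.89 CPM at 1 month. In CL caudal it was 2.99, 12.8, and 3.82 CPM in the same order, and in BM 15.5, 20.3, and 14.3 CPM. The early library was the highest of its tumor in all 4, although in BM it was only 1.31-fold above the biopsy before treatment. The fitted early difference was 1.73 log2 (standard error 0.61), and 1.06 log2 without RV. ZBP1 and CASP8 were the 2 of the 9 genes with the early library above both the earlier and the later libraries in all 4 tumors, a pattern shown by 5.91% of all genes tested. The late difference was -0.25 log2 (standard error 0.57, adjusted p = 0.983 by edgeR).

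RIPK3 (chr8:4430799-4435106), the kinase that carries the ZBP1 signal to necroptosis, did not share one direction. In RV it was 35.2 CPM before and 20.8 CPM at 2 days, and 66.3 and 49.6 CPM at the injection and adjacent sites late. In BM it was 18.1 CPM before, 52.6 CPM at 1 week, and 57.2 CPM at 3 weeks. In CL cranial it was 24.5, 31.6, and 13.4 CPM, and in CL caudal 4.97, 21.7, and 7.09 CPM, before, early, and late. The 3 mammary tumors were thus higher early, by 0.37 to 2.11 log2, while RV was lower by 0.76 log2 in the library where ZBP1 was highest. The fitted early difference was 0.92 log2 (standard error 0.55), and 0.41 log2 without CL caudal, and the late one 0.63 log2 (standard error 0.53, adjusted p = 0.973 by edgeR).

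RIPK1 (chr35:4668563-4694064), the scaffold kinase of the TNF receptor complex, was the most even of the 9 genes. It averaged 112 ± 15.5 CPM before (SD, n = 4), 110.1 ± 10.8 CPM early (SD, n = 4), and 111 ± 20.4 CPM late (SD, n = 5). The lowest and the highest of the 13 libraries were the 2 late RV sites, with 87.3 CPM at the injection site and 143 CPM at the adjacent site. The spread between 2 sites of 1 mass on the same day was thus as wide as the range over all dogs and times. Fitted differences were -0.02 log2 early (standard error 0.29; 0.12 log2 without RV) and -0.03 log2 late (standard error 0.28, adjusted p = 0.996 by edgeR).

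The partners did not move in step, and the ratios of their reads differed between libraries. In bulk tissue the reads of a pair need not come from the same cells. ZBP1 reads per RIPK3 read, which can be set side by side across libraries but not read as relative abundance since gene length is not corrected, were 0.0890 before and 23.7 at 2 days in RV. They were 0.547 and 4.53 in CL cranial, 0.614 and 0.897 in CL caudal, and 1.29 and 1.93 in BM. Late they were 0.0542 and 0.0743 at the RV injection and adjacent sites, 0.328 for BM, 0.516 for CL cranial, and 0.0577 for CL caudal. The ratio was highest early in each tumor, by a wide margin in RV and CL cranial and by a narrow one in CL caudal and BM.

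ADAR, which edits double-stranded RNA and limits the ligands of ZBP1, was itself higher early in all 4 tumors, at 33.0 CPM before and 143 CPM early in RV and at 76.7 and 124 CPM in BM. In CL it was 92.1 and 186 CPM in the cranial and 37.1 and 118 CPM in the caudal tumor. ZBP1 reads per ADAR read went from 0.0949 to 3.44 in RV, from 0.146 to 0.769 in CL cranial, from 0.0821 to 0.165 in CL caudal, and from 0.305 to 0.820 in BM. The ZBP1 difference was therefore the larger of the pair in every tumor. ZBP1 was chosen on its early difference, so nothing is read from this, or from the early ratio to RIPK3.

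**Figure D3:**
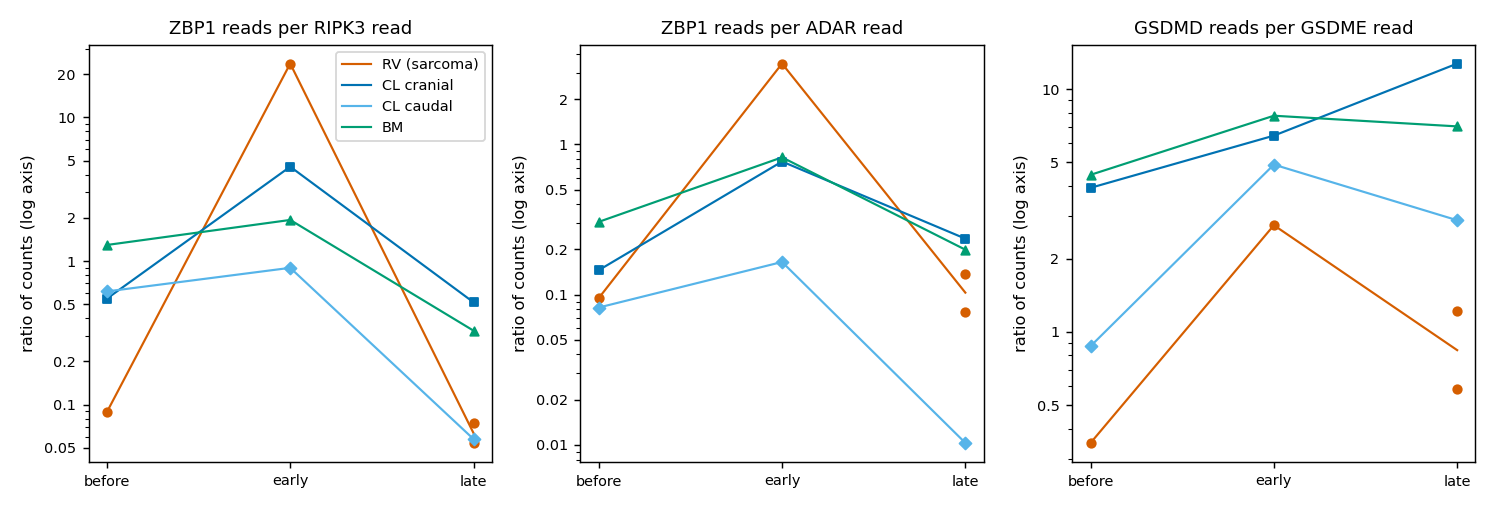
Ratio of counts (log axis) of ZBP1 to RIPK3, ZBP1 to ADAR, and GSDMD to GSDME in each library, before, early, and late; points are libraries, colors are tumors, and lines join a tumor's libraries, through the geometric mean of the 2 late RV sites. ZBP1 to RIPK3 spans 0.0542 to 23.7, with the highest value in RV at 2 days.

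NLRP3 (chr8:337026-389302), the inflammasome sensor of membrane damage and ion flux, was 4.20 CPM before and 91.4 CPM at 2 days in RV, and 5.02 and 4.29 CPM at the injection and adjacent sites late. In CL cranial it was 9.34, 22.04, and 10.7 CPM before, early, and late, and in BM 4.06, 15.8, and 8.48 CPM. In CL caudal it was 19.98 CPM before, 12.4 CPM at 1 week, and 14.4 CPM at 1 month. NLRP3 was thus higher early in 3 tumors and lower in CL caudal, where the library before treatment was the highest of the 4 taken at that time. The fitted early difference was 2.10 log2 (standard error 0.82) and 0.84 log2 without RV, whose 2-day library held 1137 CPM of neutrophil markers. The part of neutrophils, which express NLRP3, was not tested. Late it was 0.04 log2 (standard error 0.69, adjusted p = 0.998 by edgeR).

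The CASP4 row, with the older symbol CASP1, had the same layout over the tumors. It was 9.73 CPM before and 162 CPM at 2 days in RV, 10.9 and 46.0 CPM in CL cranial, and 8.11 and 51.8 CPM in BM. In CL caudal it was 30.1 CPM before and 19.8 CPM at 1 week. Late levels were 7.94 and 4.90 CPM at the RV injection and adjacent sites, 19.9 CPM in CL cranial, 32.3 CPM in CL caudal, and 12.2 CPM in BM. As with NLRP3, the caudal tumor of CL had the highest level before treatment and the lowest at the early time. The fitted differences were 2.55 log2 early (standard error 0.79; 1.56 log2 without RV and 1.37 log2 without its 2-day library) and 0.14 log2 late (standard error 0.67, adjusted p = 0.992 by edgeR).

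IL18 (chr5:21018633-21028888), the cytokine that caspase-1 matures and that drives interferon gamma production, was 9.73 CPM before and 46.6 CPM at 2 days in RV. It was 19.4 and 87.5 CPM before and at 1 week in CL cranial and 9.95 and 35.9 CPM in BM, but 60.1 and 51.2 CPM in CL caudal. Its late levels were 10.6 and 8.04 CPM at the RV injection and adjacent sites, 27.2 CPM in CL cranial, 66.0 CPM in CL caudal, and 13.4 CPM in BM. The tumor with the high level before treatment was again CL caudal, and there the 3 time points lay within 51.2 to 66.0 CPM. The fitted difference was 1.65 log2 early (standard error 0.46) and 0.17 log2 late (standard error 0.42, adjusted p = 0.985 by edgeR). IL18BP, the secreted antagonist of interleukin-18, was higher early in all 4 tumors, from 23.3 to 339 CPM in RV, from 11.3 to 54.9 CPM in CL cranial, from 73.6 to 99.7 CPM in CL caudal, and from 11.6 to 17.6 CPM in BM. IL18 reads per IL18BP read were accordingly lower early in RV (0.417 to 0.138) and CL caudal (0.816 to 0.513), close in CL cranial (1.71 and 1.60), and higher in BM (0.856 to 2.04).

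PYCARD (chr6:17211709-17213472), which encodes the adaptor ASC, was higher early in all 4 tumors by a smaller margin. It was 15.1 and 27.3 CPM before and early in RV, 13.6 and 34.2 CPM in CL cranial, 21.7 and 23.5 CPM in CL caudal, and 31.9 and 51.7 CPM in BM. In CL caudal the 95% counting intervals of these libraries overlapped (19.5 to 24.0 CPM before and 21.6 to 25.5 CPM early). Late it was 7.94 and 6.89 CPM at the RV injection and adjacent sites, both below every other library, and 29.2, 33.7, and 23.1 CPM in CL cranial, CL caudal, and BM. The 2 late RV sites and the late BM library were thus below their own biopsies before treatment, and both CL tumors above. Fitted differences were 0.77 log2 early (standard error 0.45; 0.46 log2 without the 2-day RV library) and -0.02 log2 late (standard error 0.43, adjusted p = 0.998 by edgeR). NLRP3 reads per PYCARD read were 0.278 before and 3.34 at 2 days in RV, whereas in the mammary tumors they lay between 0.127 and 0.923 at every time.

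GSDMD (chr13:37965884-37971607), the gasdermin that caspase-1 cuts, was 32.5 CPM before and 116 CPM early in RV, 44.4 and 89.8 CPM in CL cranial, 14.5 and 80.9 CPM in CL caudal, and 56.3 and 102 CPM in BM. The 4 early libraries, at 80.9 to 116 CPM, all lay above the 4 libraries before treatment, which ended at 56.3 CPM. Among the 9 genes GSDMD alone showed this separation, and 2.71% of all genes tested did. The early levels also lay close together, at 97.2 ± 15.4 CPM (SD, n = 4), against 36.9 ± 17.8 CPM before (SD, n = 4). The fitted early difference was 1.58 log2 (standard error 0.39).

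GSDMD was also above its level before treatment in all 4 tumors late. Late it was 92.9 and 39.6 CPM at the RV injection and adjacent sites, 77.9 CPM in CL cranial, 37.4 CPM in CL caudal, and 132 CPM in BM, which was above the early BM library. Late levels were 1.75-fold to 2.57-fold those before treatment within the 4 tumors, and the late difference was 1.07 log2 (standard error 0.37). Its adjusted p was 0.973 by edgeR, and its unadjusted p of 0.0136 was the only one under 0.05 among the 9 genes. Both late RV sites were above the RV biopsy before treatment, but they differed from each other by 1.23 log2, a distance larger than that of 88.3% of genes. This spread within a single mass exceeded the fitted late difference.

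GSDME (chr14:38295918-38371682), a pore-forming relative of GSDMD, set the sarcoma apart. It was 93.0 CPM before, 42.3 CPM at 2 days, and 76.2 and 68.2 CPM at the injection and adjacent sites late in RV. In the 9 mammary libraries it ranged from 6.12 CPM in CL cranial at 1 month to 18.7 CPM in BM at 3 weeks. No mammary library reached the lowest RV value, and with 1 sarcoma the tumor type and the dog cannot be told apart. In RV at 2 days the fibroblast markers were lower as well, and their part in the lower GSDME was not tested. The fitted differences were -0.16 log2 early (standard error 0.38; 0.13 log2 without RV) and -0.19 log2 late (standard error 0.36, adjusted p = 0.978 by edgeR).

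Reads of GSDMD per GSDME read joined both patterns. They were 0.349 before and 2.75 early in RV, 3.92 and 6.44 in CL cranial, 0.874 and 4.89 in CL caudal, and 4.44 and 7.77 in BM. Late they were 1.22 and 0.581 at the RV injection and adjacent sites, 7.02 for BM, 12.7 for CL cranial, and 2.88 for CL caudal. The ratio stood above its level before treatment in every early and late library.

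**Figure D4:**
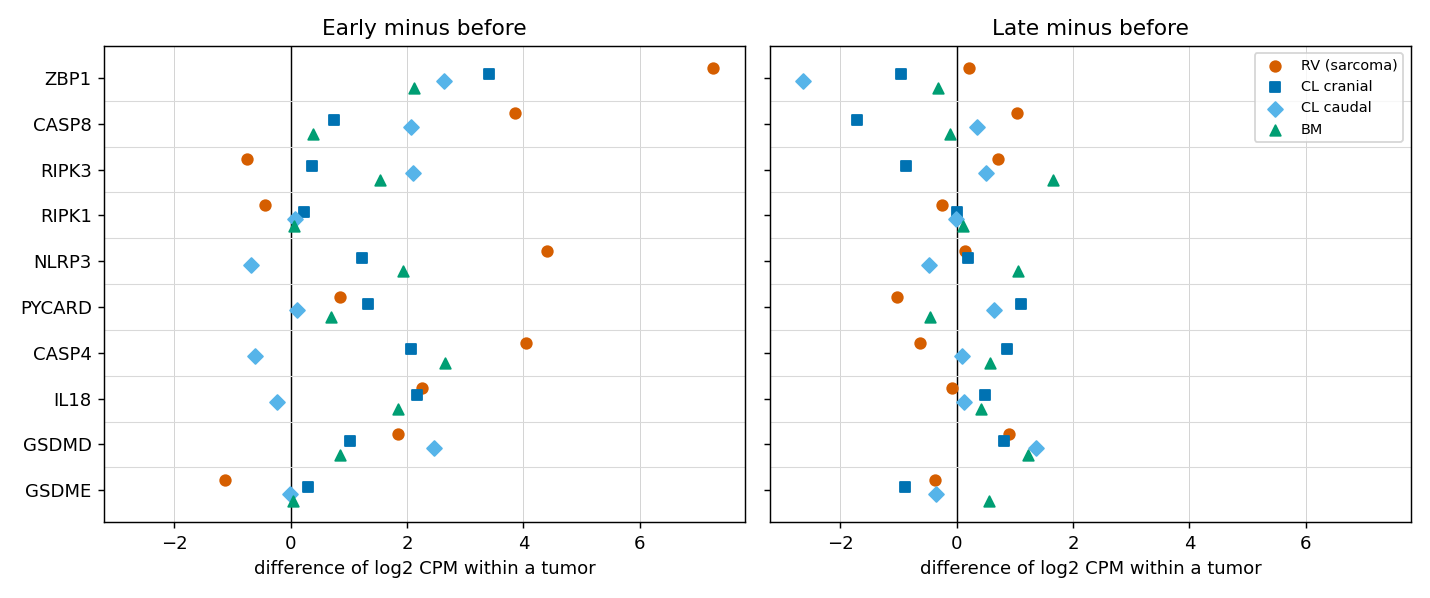
Difference of log2 CPM from the biopsy before treatment of the same tumor, early and late, for the 9 genes and CASP4; points are tumors, and the 2 late RV sites are averaged. Early, ZBP1, CASP8, PYCARD, and GSDMD lie to the right of 0 in all 4 tumors; late, GSDMD does.

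Early, 4 of the 9 genes were higher than before in all 4 tumors, namely ZBP1, CASP8, PYCARD, and GSDMD. PYCARD differed by only 0.12 log2 in CL caudal. Of the 9 genes, 0 were lower in all 4. Over all genes tested the shares were 10.8% and 7.85%, and nothing is read from this comparison, or from the other separations that use the early libraries, since the genes were chosen with it known. Without RV, 6 of the 9 genes were higher in the remaining 3 tumors, where 15.6% of all genes were. Late, 1 of the 9 was higher in all 4 tumors, GSDMD, and 0 were lower, against 7.13% and 8.04% of all genes. By edgeR's adjusted p, 0 of the 9 genes passed late against before, as did 0% of all genes. At an unadjusted p under 0.05, 1 of the 9 was higher, against 1.28% of all genes, and DESeq2's Wald test called 0 of the 9 and 0.0348% of all genes. The median of the 9 fitted differences was 1.58 log2 early and -0.02 log2 late, beside 0.25 and -0.05 log2 over all genes tested.

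Set against the macrophage markers, none of the other genes had the early direction of ZBP1 in all 4 tumors. In BM all of them were lower early, as ZBP1 was. Per 100 CPM of those markers, GSDMD was lower early than before in 3 tumors (18.3 to 9.80 CPM in RV, 18.8 to 8.30 in CL cranial, and 49.2 to 11.48 in BM) and higher in CL caudal (4.22 to 12.5). CASP8 was higher in RV and CL caudal and lower in CL cranial and BM, so that it differed from ZBP1 in CL cranial only. PYCARD, IL18, RIPK1, and GSDME were lower in all 4. NLRP3 and CASP4 were higher in RV and lower in the other 3 tumors, and RIPK3 was higher in CL caudal and lower in the other 3.

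Genes of the surrounding pathways were taken from 6 lists, of which 82 of 96 genes could be tested. The lists were written with earlier results of these data known, so their early counts are no independent evidence of direction. Of these 82, 0 passed early against before by edgeR's adjusted p, where 1 gene of all tested did (0.00497%). At an unadjusted p under 0.05, 32 were higher and 0 lower early, against 7.7% and 3.16% of all genes, and 21 were higher without RV, against 5.02% of all genes. By DESeq2's adjusted p, 24 were higher and 0 lower early, against 4.75% of all genes in either direction. Late, 0 passed by edgeR or DESeq2, and 4 were higher and 0 lower at an unadjusted p under 0.05, where 1.28% of all genes were higher. Of all 20118 genes tested, 805 had such a p late by edgeR, 258 of them higher and the rest lower. Both comparisons share the libraries before treatment.

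Among the sensors and regulators of other inflammasomes, 5 of 15 genes were higher early in all 4 tumors, against 10.8% of all genes. MEFV encodes pyrin, an inflammasome sensor of granulocytes and monocytes. It was 0.1999 CPM before and 42.2 CPM at 2 days in RV, 0.290 and 6.31 CPM in CL cranial, 0.120 and 1.83 CPM in CL caudal, and 0.917 and 3.34 CPM in BM. Every early library of MEFV was above every library before treatment, although the value in CL caudal before treatment rests on 2 counts and is not a level measured at this depth. PSTPIP1, whose product binds pyrin, went from 4.25 ± 2.26 CPM before to 33.8 ± 12.97 CPM early (SD, n = 4 each). NLRP1, a sensor that also occurs in epithelial cells, was at 2.13 to 6.19 CPM in the 4 libraries before and at 11.7 to 48.7 CPM in the 4 early ones. Their fitted early differences were 4.73, 3.22, and 3.05 log2, with adjusted p-values of 0.133, 0.142, and 0.219 by edgeR. None of the 3 passed the threshold by edgeR, while DESeq2's Wald test called all 3. The 3 genes were named for the size of this same early difference, so their p-values and calls are no independent support.

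Partners in RNA sensing and editing had the highest early share, 10 of 17 genes higher in all 4 tumors against 10.8% of all genes, and a median difference of 1.38 log2. In this list DHX58 and IFIH1, members of the RIG-I family of RNA sensors, differed by 2.99 and 2.40 log2 early (adjusted p = 0.172 and 0.192 by edgeR), and the transcription factor IRF1 by 2.10 log2 (adjusted p = 0.154). Of the RIP kinase and TNF receptor complex, 6 of 23 genes were higher early in all 4 tumors and 1 was lower, against 10.8% and 7.85% of all genes, and the median was 0.72 log2. Its leading genes were BIRC3, a ubiquitin ligase that holds back RIPK1-dependent death, at 2.57 log2, TICAM1, the adaptor of Toll-like receptor 3, at 2.11 log2, and TNIP1, a partner of the inhibitor A20, at 1.94 log2. None of these 6 genes passed the threshold by edgeR, while DESeq2's Wald test called all 6. They too were named for the size of their early difference, so nothing is read from these calls.

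Of the 9 caspases tested besides CASP8, CASP4 among them, 2 were higher early in all 4 tumors and 2 were lower, against 10.8% and 7.85% of all genes. The higher ones were CASP14, a caspase of cornifying keratinocytes, at 3.06 log2, and the initiator CASP10 at 1.53 log2. The early excess of CASP14 rested on 9 against 3 counts in CL caudal and on 15 against 14 counts in BM. These are not distinguishable at this depth. CASP14 was 40.0 CPM in RV at 2 days, and at most 4.06 CPM in the other 12 libraries. The mean log2 CPM of the 8 epidermis markers was 8.41 in that library and at most 5.89 in the others. Their summed CPM was 2952 in that library but 3539 in BM before treatment, where CASP14 was 0.389 CPM. The part of these markers in the CASP14 level was not tested. CASP6, an effector caspase, was lower early and higher late in all 4 tumors, at -0.59 log2 and 0.70 log2 (late unadjusted p = 0.0387 and adjusted p = 0.973 by edgeR). CASP6 was named after its values were seen.

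Of the other gasdermins and membrane rupture genes, 3 of 8 were higher early in all 4 tumors, against 10.8% of all genes. GSDMA, the gasdermin of skin, was 18.5 CPM in RV at 2 days and at most 1.37 CPM in every other library. Its early excess rested on 6 against 2 counts in CL caudal and on 0.781 against 0.722 CPM in BM, which are not distinguishable at this depth. BAK1 and BAX, the pore proteins of mitochondrial apoptosis, differed by 0.69 and 0.67 log2 early. In the interleukin-1 family, 4 of 10 genes were higher early in all 4 tumors, against 10.8% of all genes, with a median of 1.46 log2. IL18RAP, a receptor chain for interleukin-18, differed by 2.46 log2, IL18BP by 2.10 log2, and IL1RN, the interleukin-1 receptor antagonist, by 1.98 log2. Their adjusted p-values were 0.413, 0.382, and 0.328 by edgeR, and DESeq2 called IL1RN. Since these genes were also named for their early difference, the values are a description. Early medians of the 6 lists ran from 0.58 to 1.46 log2, and late medians from -0.16 to 0.18 log2.

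**Figure D5:**
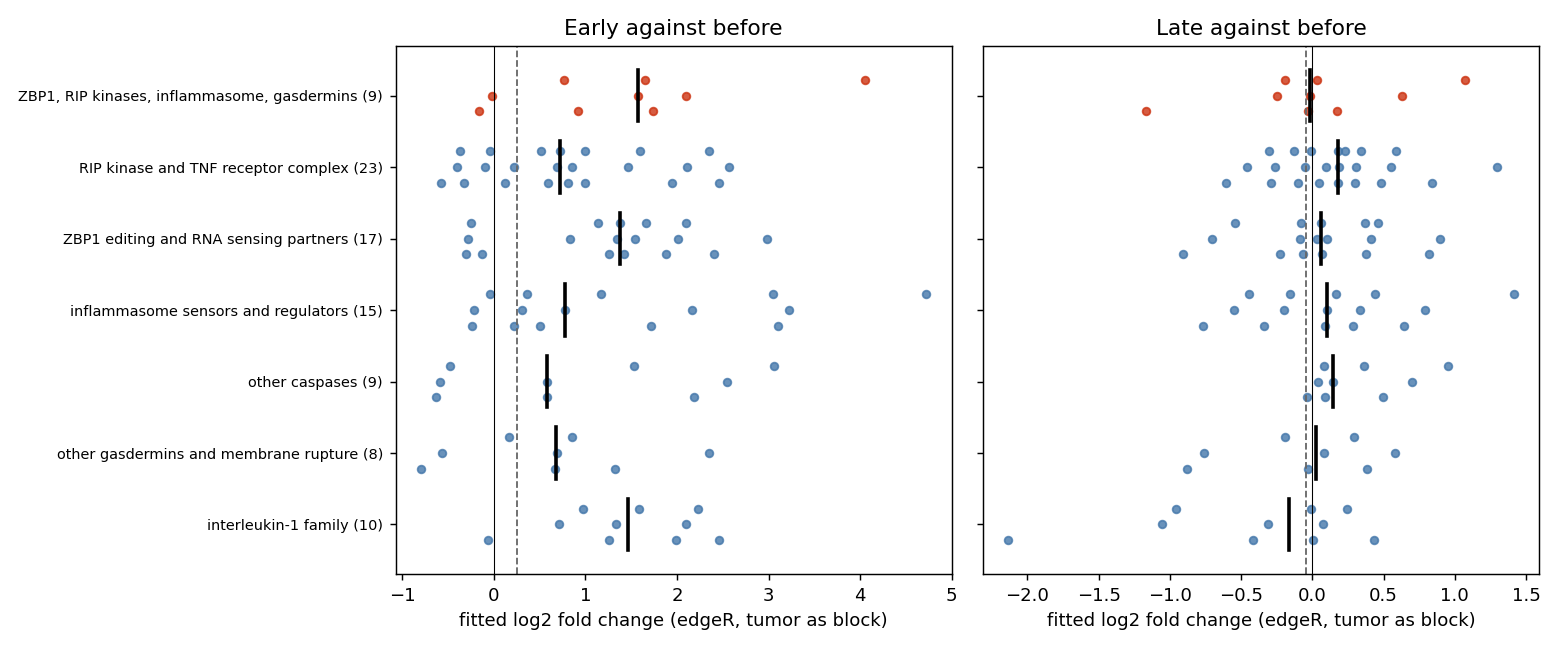
Fitted log2 fold change of each tested gene, early and late against before, for the 9 genes (red) and for the 6 pathway lists (blue), with the number of genes tested in parentheses. Black bars are list medians, the dashed line is the median of all genes tested, and the solid line is 0; list medians lie at 0.58 to 1.58 log2 early and at -0.16 to 0.18 log2 late.

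The 10 genes whose log2 CPM was most like that of ZBP1 over the 13 libraries were APOBR, SIM1, ARHGAP30, MARCO, NFAM1, SERPINA1, ADAM8, TMEM132C, DOK2, and PRAM1, with Pearson's r from 0.947 to 0.969. MARCO is a scavenger receptor of macrophages and one of the 7 macrophage markers. Of the 10, 3 stayed among the first 10 by Spearman's correlation, 3 after centring within each tumor, and 4 without RV. CASP8, with r = 0.918, stood at place 34 of 20117 genes, and the other members of the group were lower, at 0.642 for GSDMD, 0.579 for NLRP3, 0.423 for PYCARD, 0.319 for RIPK3, and 0.258 for IL18. For RIPK1 and GSDME r was -0.245 and -0.125. Without the RV libraries, and without centring, r was 0.887 for CASP8, 0.797 for RIPK3, and 0.0039 for NLRP3. These uncentred values mix differences between tumors with differences between times. After centring within each tumor the order differed, with r = 0.894 for CASP8, 0.815 for NLRP3, 0.777 for IL18, 0.565 for PYCARD, 0.518 for GSDMD, and 0.051 for RIPK3. Libraries of a tumor share a host and a mass, so these are descriptions over 13 points that are not independent.

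Among themselves, over the same 13 libraries and without regard to tumor, NLRP3, CASP4, and IL18 correlated pairwise with r = 0.955, 0.806, and 0.790, for NLRP3 with CASP4, CASP4 with IL18, and NLRP3 with IL18. GSDMD was nearer to CASP8 (r = 0.689) than to IL18 (r = -0.0065), although caspase-1 cuts both proteins. In the caudal tumor of CL, ZBP1, CASP8, RIPK3, and GSDMD were 4.28-fold to 6.38-fold higher at 1 week while NLRP3, CASP4, and IL18 were lower. After centring within each tumor, NLRP3, IL18, and CASP4 correlated with ZBP1 at r = 0.815, 0.777, and 0.770. Uncentred, the values were lower, at 0.579, 0.258, and 0.584. For CASP8, GSDMD, and RIPK3 centring went the other way, from 0.918, 0.642, and 0.319 to 0.894, 0.518, and 0.051. In CL caudal the summed neutrophil markers were 15.2 CPM early and 20.5 CPM before, but their mean log2 CPM was 0.35 and 0.03, so that no direction is read from them.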

How the data were processed

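RNA from 13 tumor biopsies of 3 dogs was measured by strand-specific RNA-seq. The authors used Strand NGS to align to CanFam4.0, and the table they deposited holds unnormalized counts, 1 row a symbol; the counting rule and annotation release are not given in the sources used here, so reads shared by paralogs are uncertain. Groups came from the treatment labels. Genes were filtered with filterByExpr (minimum count 10), leaving 20118, scaled by TMM, and fitted in edgeR 4.0.16 (R 4.3.3) with glmQLFit and glmQLFTest, tumor and time group as factors, and Benjamini-Hochberg adjustment at 0.05. Standard errors are the coefficient divided by the root of the F statistic. Differences within a tumor are of log2 CPM with a prior count of 2. Libraries were paired by tumor; deviations from the group means correlated within a tumor at a mean r of 0.59 before and late (0.23 before and early), against -0.20 and -0.07 between tumors. Biopsies, not cultures or litters, are the replicates, and the tumors of CL are 1 animal.

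The genes and lists were chosen with earlier results of these data known. All 9 genes, up to 3 genes per list with the largest early difference shared in direction by all tumors, and the 10 genes most like ZBP1 are named; ADAR and CASP6 were named after their values were seen. 1 gene that the rule would name is not reported here. Coordinates and gene IDs are from RefSeq (UU_Cfam_GSD_1.0), which matched 98.0% of symbols; no sequence was used here. Depth was 11622444 to 29931125 counts per library, and intervals cover counting error only. Alternatives were DESeq2 1.42.0, other scaling, filters, blocks, and libraries left out. The models were tested on simulated data. Python 3.11.15 with numpy 2.4.6, pandas 2.3.3, scipy 1.17.1, and matplotlib 3.10.9 was used.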

Additional observations from a re-analysis of the deposited data

Results flagged for a closer look

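In 5 of 20 comparisons with the biopsy before treatment, RV moved opposite to all 3 mammary tumors, with the late RV sites averaged. The share of all genes with this pattern was not counted, so nothing is read from the number. The differences were not tested, since RV is a single sarcoma, and tumor type, dog, and time cannot be told apart. Early, RIPK3 was at -0.76 log2 in RV and at 0.37 to 2.11 log2 in the mammary tumors, and RIPK1 was at -0.44 log2 in RV and at 0.06 to 0.24 log2 in the others. Late, ZBP1 was at 0.21 log2 in RV and at -2.63 to -0.32 log2 in the mammary tumors, IL18 was at -0.076 log2 in RV and at 0.14 to 0.48 log2 in the others, and the CASP4 row was at -0.63 log2 in RV and at 0.10 to 0.86 log2 in the others. For RIPK1 and IL18 the values lie near 0. The rule for outlying libraries flagged 0 of 30 groups examined, where chance gives about 1.5. This does not mean that the libraries of a group were alike. GSDME before treatment, for instance, was 93.0 CPM in RV and at most 16.6 CPM in the mammary tumors.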

How the results depend on the processing

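The early difference kept its sign under all 14 alternatives for ZBP1 (2.81 to 4.68 log2), CASP8, RIPK3, PYCARD, NLRP3, GSDMD, IL18, and CASP4, and the late difference did for ZBP1 (-1.48 to -0.62 log2), GSDMD (0.94 to 1.21 log2), RIPK3, and IL18. No late difference of the 9 genes or CASP4 passed the threshold under any alternative, where adjusted p-values were 0.398 to 1.0 for GSDMD and 0.640 to 1.0 for ZBP1. Late differences near 0 changed sign; the cause was not tested. RIPK1 was at 0.055 log2 without the late RV injection site, and at -0.083 to 0.039 log2 with a tumor left out, the highest without RV. With a tumor left out, CASP8 was at -0.48 to 0.23 log2 and CASP4 at -0.11 to 0.46 log2, both turning without CL cranial. PYCARD was at 0.14 log2 with the late RV sites summed, 0.16 log2 without the adjacent site, 0.12 log2 without the injection site, and -0.37 to 0.45 log2 with a tumor left out (0.45 log2 without RV, 0.089 log2 without BM). NLRP3 was at -0.024 log2 with no filter, -0.13 log2 without the tumor as replicate block, -0.0082 log2 with the dog as block, and -0.28 to 0.35 log2 with a tumor left out (-0.28 log2 without BM, -0.0042 log2 without CL cranial). GSDME was at 0.13 log2 without the tumor as replicate block, which changed no call of these genes.

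Over all genes, 1 was called early against before. The count was 17 with no filter, 956 by DESeq2's Wald test, and 0 under every other alternative, with size factors by DESeq2's method, without the replicate block, with the dog as block, with only the times compared, with the late RV sites summed or either left out, without the 2-day RV library, and with any tumor left out (0 to 0). Late, DESeq2 called 7 and every other fit 0. The number of the 9 genes higher in all tumors was 4 early, 5 with no scaling, and 4 to 6 with a tumor left out (6 without RV or CL caudal); late it was 1, and 1 to 2 with a tumor left out (2 without RV, CL cranial, or CL caudal) or 2 with the RV injection site alone. Of the 10 genes most like ZBP1, 3 were shared by Spearman's measure, 3 after centring within tumors, and 4 to 4 without RV. The lists without RV, the counts with a tumor left out, and the fit without the 2-day RV library were chosen after seeing the data. With 1 library per tumor and time, these data show differences between biopsies, and a gene below 3 counts is not detectable.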
